A study of Mus musculus with 10 samples.

Results

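The genes described here were 9 Toll-like receptors other than Tlr3 (Tlr1, Tlr2, Tlr4, Tlr5, Tlr6, Tlr7, Tlr8, Tlr9 and Tlr13) and Myd88, the adaptor that all 9 use. They were taken by symbol from the deposited gene table: 10 of its 36009 rows, each matched once, and all 10 among the 15767 features with enough reads to be tested. The RNA came from subcutaneous WEHI 164 tumors, which a fibrosarcoma line of the mouse formed in wild-type female BALB/c mice. Each piece was cut out at surgery and stored while the tumor was still untreated. A hydrogel loaded with poly(I:C), a synthetic double-stranded RNA that activates Tlr3, was then laid on the tumor left behind. In 5 responders (RS) the tumor later regressed completely, whereas in 5 non-responders (NR) its growth was not delayed, so the values describe tumors before any poly(I:C) was given. All 10 tumors derive from the same cell line, and each tumor was sequenced once. Tumors are named by the number in their labels, which is 1, 2, 3, 6 and 7 for NR and 5, 9, 10, 11 and 12 for RS. What this number marks is not given in the sources used here, and 4 of the 5 responders have higher numbers than every non-responder. Where responders 9 to 12 differ from the other tumors, response and number order therefore cannot be told apart. Values are counts scaled to a common library size (CPM), with TMM factors between tumors, from totals of 16002949 to 31160790 estimated counts in RS and 19863863 to 28276142 in NR.

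Toll-like receptors are membrane proteins of innate immune cells that bind molecules of microbes or of damaged cells. Receptors on the cell surface bind lipids and proteins of bacteria and fungi, and receptors in endosomes bind nucleic acids that reach that compartment. Apart from Tlr3, which signals through Ticam1, these receptors recruit Myd88 and start a kinase cascade that ends in NF-kB and interferon regulatory factors, and in the transcription of cytokines. In tumors they are known mainly from macrophages, dendritic cells and granulocytes, although fibroblasts and tumor cells can carry some of them.

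The receptors differed little between responders and non-responders, and none of the 10 genes passed the test (edgeR quasi-likelihood test with Benjamini-Hochberg adjustment over all features, 0 of 10 at an adjusted p under 0.05). The table as a whole gave the same picture, with 0 of 15767 features called (0%). Tlr2 was the gene with the clearest separation, with a mean of 32.6 CPM in RS against 27.4 CPM in NR. The log2 fold changes of the 5 surface receptors all lay above 0, with a median of 0.17, and those of Tlr7, Tlr8, Tlr9 and Tlr13 all lay below 0, with a median of -0.12. Tlr9 had the lowest at -0.30, and Myd88 lay near 0 at 0.03. The median of Tlr7, Tlr8, Tlr9 and Tlr13 was -0.06 without non-responder 1, -0.08 without non-responder 7, -0.19 without responder 5 and -0.20 without non-responder 2, and that of the surface receptors was 0.11 without non-responder 2. Among fits that each left out 1 tumor, Tlr7 lay between -0.17 (without non-responder 2) and -0.0041 (without non-responder 1), around the -0.10 of all tumors. Likewise Tlr1 lay between 0.0033 (without non-responder 2) and 0.20 (without non-responder 6), and Tlr5 between 0.04 (without non-responder 2) and 0.25 (without non-responder 7). At an unadjusted p under 0.05 there was 1 of the 10 genes, Tlr2, where 1294 features (8.21%) in the table reached that level, 663 of them (4.2%) higher in RS. At an adjusted p under 0.05 limma-voom called 0 features and DESeq2 called 4, but DESeq2 gave none of the 10 genes an adjusted p. A log2 fold change above 0 was found for 6 of the 10 genes and for 48.6% of all features. The median over the 10 genes was 0.07 against -0.0036 over all features.

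**Figure D1:**
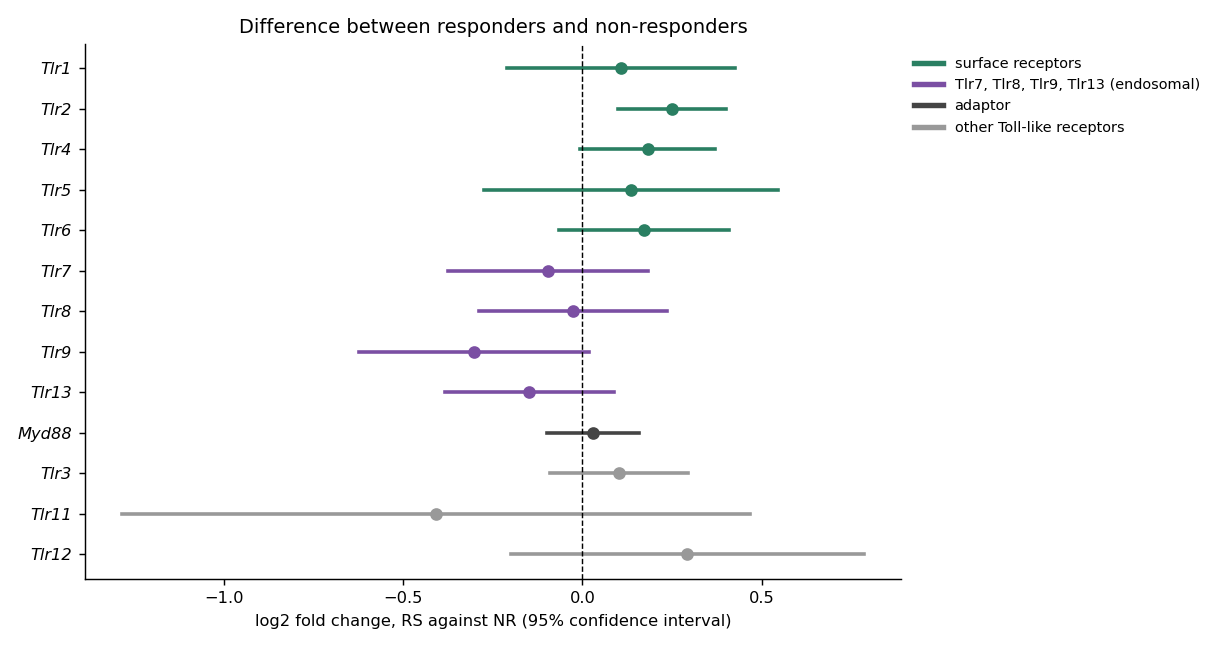
Log2 fold change of each receptor gene and Myd88, RS against NR, as points with 95% confidence intervals from edgeR as lines. The 5 surface receptors lie to the right of 0 and Tlr7, Tlr8, Tlr9 and Tlr13 to the left, and the interval of Tlr2 is the one that does not cross 0.

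Responder 5 had lower levels of natural killer (NK) cell markers than the other responders. The summed level of 7 NK cell markers was 16.8 CPM in responder 5 and 72.9 to 149 CPM in responders 9 to 12, against 12.7 to 47.8 CPM in non-responders. Without responder 5, edgeR called 9 features at the same threshold, and 2139 of 15695 (13.6%) reached an unadjusted p under 0.05. The 10 genes still held none that was called, but 4 had an unadjusted p under 0.05: Tlr2 and Tlr4, higher in RS, and Tlr9 and Tlr13, lower in RS (edgeR adjusted p from 0.140 to 0.346).

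Among the surface receptors, Tlr2 pairs with Tlr1 or Tlr6 to bind bacterial lipopeptides. The gene lies on the minus strand of chromosome 3 of GRCm38, from 83836272 to 83841767. In non-responders 1, 2, 3, 6 and 7 Tlr2 was at 24.8, 28.3, 30.85, 28.2 and 24.9 CPM, and in responders 5, 9, 10, 11 and 12 at 30.89, 36.3, 32.2, 32.0 and 31.8 CPM. Every responder was above every non-responder, but the nearest pair, responder 5 and non-responder 3, were nearly level. Such a separation was found for 1 of the 10 genes and for 0.926% of all features. The log2 fold change was 0.25 (SE 0.07, 95% confidence interval 0.10 to 0.40), a 1.19-fold higher level in RS, with an edgeR p of 0.00339 and an adjusted p of 0.580. By p, Tlr2 ranked 71 among the 15767 features.

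Tlr4, which recognizes bacterial lipopolysaccharide together with Ly96 and Cd14, lies on the plus strand of chromosome 4 from 66827584 to 66930284. It was at 36.1, 30.9, 34.2, 26.4 and 27.7 CPM in non-responders 1, 2, 3, 6 and 7, and at 32.3, 39.5, 34.5, 35.03 and 35.02 CPM in responders 5, 9, 10, 11 and 12. The groups overlapped: non-responder 1 exceeded all responders but number 9, and non-responder 3 exceeded responder 5. Tlr4 had a log2 fold change of 0.18 (SE 0.09, 95% confidence interval -0.01 to 0.37, edgeR adjusted p = 0.616). Tlr2 and Tlr4 had the smallest p of the 5 surface receptors and, per transcript length, the highest levels.

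Tlr1 and Tlr6 are partners of Tlr2, and the pairing decides which lipopeptides are bound. They are neighbors on the minus strand of chromosome 5, Tlr1 from 64924679 to 64933563 and Tlr6 from 64952031 to 64960097, with 18467 bases between them. Of the stretches of 31 bases in Tlr1 transcripts, 19.5% also occur in Tlr6, and 16.4% of those of Tlr6 occur in Tlr1. A read that lies wholly in shared sequence cannot be placed in either gene by sequence alone, so the estimated counts of the pair are uncertain to an extent that was not measured here. The longest identical run in the coding sequences is 229 bases. It is shown here with 35 bases on either side, because it is the longest stretch of coding sequence in which the 2 genes cannot be told apart, and capitals mark the bases at which the pair differs. The windows, both inside coding sequence and written 5′ to 3′ on the minus strand of GRCm38, are chr5:64925502-64925800 for Tlr1 and chr5:64953793-64954091 for Tlr6.
Tlr1: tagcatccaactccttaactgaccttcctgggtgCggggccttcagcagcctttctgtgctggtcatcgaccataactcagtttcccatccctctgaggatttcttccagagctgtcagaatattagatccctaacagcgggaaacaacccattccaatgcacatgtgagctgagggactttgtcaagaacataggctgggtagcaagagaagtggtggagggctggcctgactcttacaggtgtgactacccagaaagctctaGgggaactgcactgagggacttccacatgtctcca
Tlr6: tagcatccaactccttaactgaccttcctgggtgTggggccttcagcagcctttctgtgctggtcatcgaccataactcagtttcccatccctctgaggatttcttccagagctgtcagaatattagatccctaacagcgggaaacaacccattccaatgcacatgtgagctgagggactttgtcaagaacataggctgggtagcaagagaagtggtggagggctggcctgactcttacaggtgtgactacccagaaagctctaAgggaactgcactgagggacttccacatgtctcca

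Tlr1 ranged from 10.6 to 18.6 CPM in NR (median 14.4) and from 12.9 to 19.2 CPM in RS (median 14.8). Its lowest value belonged to non-responder 2 and its highest to responder 11, and the groups overlapped almost wholly. The log2 fold change was 0.11 (SE 0.15, edgeR adjusted p = 0.877). Tlr6 ranged from 5.72 to 8.08 CPM in NR and from 6.99 to 8.25 CPM in RS, with a log2 fold change of 0.17 (SE 0.11, edgeR adjusted p = 0.702) that was 0.11 without non-responder 2 and 0.24 without non-responder 6. Non-responders 2 and 7 were lower than all responders for Tlr6, and the other non-responders lay among them. Tlr5, the receptor of bacterial flagellin on chromosome 1 (182954788 to 182976044, plus strand), had the fewest estimated counts of the 10 genes, 36 to 70 per tumor. It was at 2.15 ± 0.520 CPM in NR and 2.38 ± 0.425 CPM in RS (SD, n = 5 each), and its log2 fold change of 0.14 had a 95% confidence interval of -0.27 to 0.55. The value of Tlr2 lies inside this interval.

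**Figure D2:**
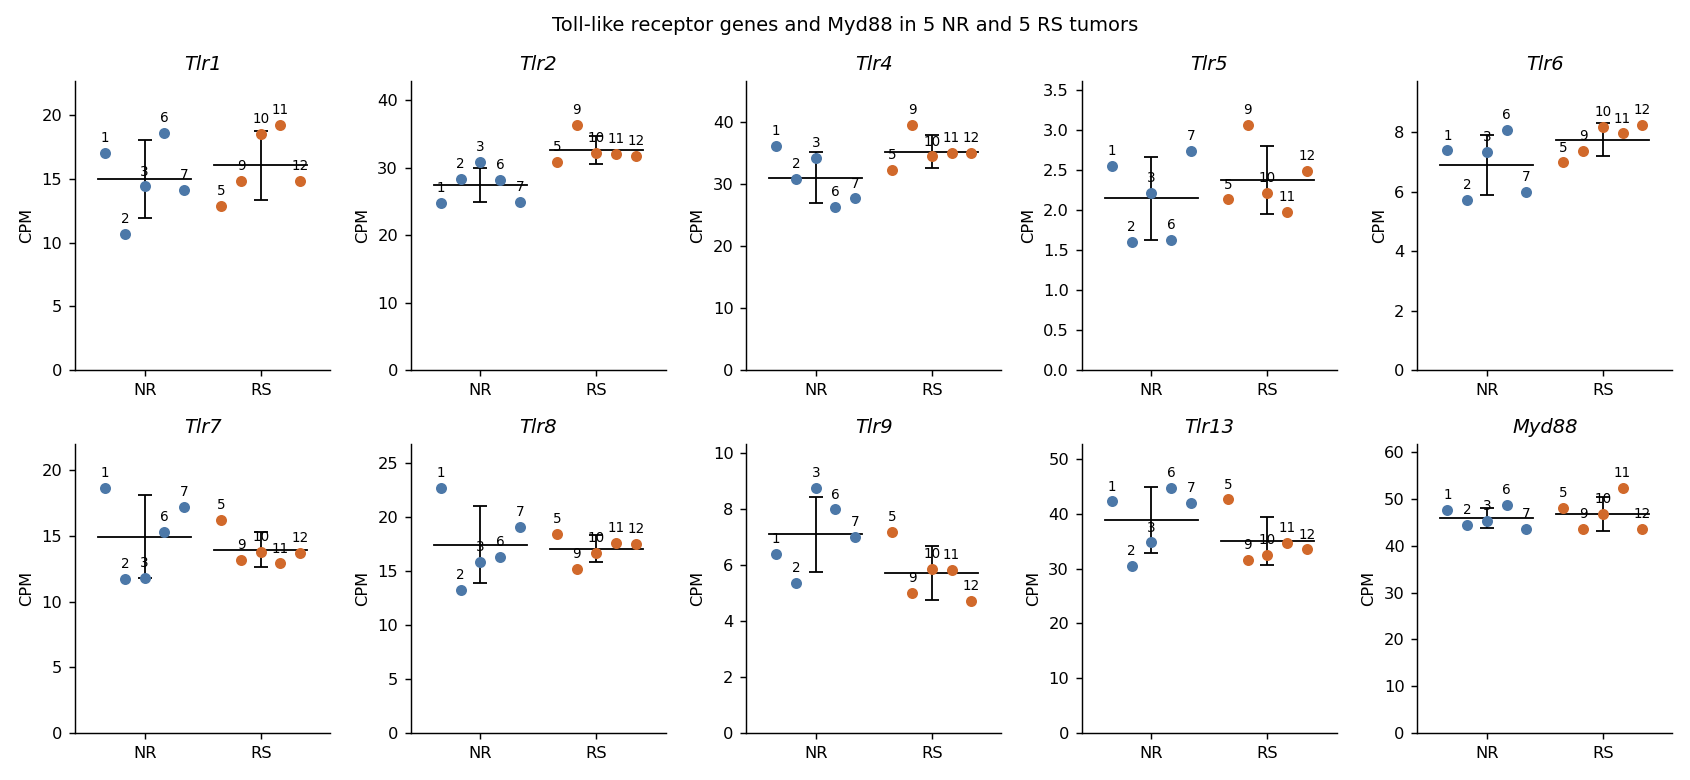
CPM of the 10 genes in each tumor, with NR in blue and RS in orange, the tumor number above each point, and the group mean and SD in black. Tlr2 is the one panel in which all 5 RS points lie above all 5 NR points, and responder 5 is the highest RS point for Tlr7, Tlr8, Tlr9 and Tlr13.

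In the endosome, Tlr9 binds DNA with unmethylated CpG. Its gene lies on the plus strand of chromosome 9 from 106222598 to 106226883. Tlr9 was at 6.38, 5.36, 8.76, 7.99 and 7.005 CPM in non-responders 1, 2, 3, 6 and 7, and at 7.19, 5.003, 5.87, 5.82 and 4.72 CPM in responders 5, 9, 10, 11 and 12. Responders 9 and 12 were below every non-responder, while responder 5 lay within the NR range. Its log2 fold change was -0.30 (SE 0.15, 95% confidence interval -0.62 to 0.02, edgeR adjusted p = 0.619). With 80 to 185 estimated counts per tumor, counting error takes part in this spread. Without responder 5 the value was -0.40 and without non-responder 3 it was -0.22.

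Tlr13, a receptor of bacterial ribosomal RNA in the mouse, lies on the plus strand of chromosome X from 106143204 to 106160493. Non-responders 1, 2, 3, 6 and 7 had 42.3, 30.5, 34.8, 44.7 and 42.0 CPM, and responders 5, 9, 10, 11 and 12 had 42.6, 31.6, 32.6, 34.6 and 33.5 CPM. Values thus gathered in an upper set of 4 tumors, responder 5 with non-responders 1, 6 and 7, and a lower set with the remaining tumors of both groups. The log2 fold change was -0.15 (SE 0.11, edgeR adjusted p = 0.741), and it was -0.09 without non-responder 6 and -0.23 without responder 5 or non-responder 2.

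Tlr7, which binds single-stranded RNA, and its relative Tlr8 are neighbors on the minus strand of chromosome X, Tlr8 from 167242696 to 167264329 and Tlr7 from 167304929 to 167330558, with 40599 bases between them. Tlr7 ranged from 11.7 to 18.7 CPM in NR (median 15.3) and from 12.9 to 16.2 CPM in RS (median 13.7), with a log2 fold change of -0.10 (SE 0.13, edgeR adjusted p = 0.870). Tlr8 ranged from 13.3 to 22.7 CPM in NR (median 16.3) and from 15.1 to 18.4 CPM in RS (median 17.5), with a log2 fold change of -0.03 (SE 0.12, edgeR adjusted p = 0.973). For both genes the RS values lay within the NR range, non-responder 1 was highest and non-responder 2 lowest. The sign for Tlr8 turned with limma-voom (0.01) and without non-responder 1 (0.09), non-responder 7 (0.01) or responder 9 (0.02).

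The other endosomal receptors of the mouse lay on both sides of 0. Tlr3 had a log2 fold change of 0.10 (SE 0.09, edgeR adjusted p = 0.787). Tlr11 and Tlr12, receptors of a parasite profilin, were at -0.41 (SE 0.41, edgeR adjusted p = 0.814) and 0.29 (SE 0.23, edgeR adjusted p = 0.753). Tlr11 rested on 4 to 25 estimated counts per tumor and Tlr12 on 28 to 90.

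Myd88, which joins the receptors to the kinases Irak4 and Irak1, was the steadiest of the 10 genes, with a coefficient of variation of 6.21% over all tumors. Its values were 47.8, 44.4, 45.4, 48.8 and 43.6 CPM in non-responders 1, 2, 3, 6 and 7, and 48.1, 43.7, 46.8, 52.4 and 43.6 CPM in responders 5, 9, 10, 11 and 12. Responder 11 was highest, and the groups overlapped throughout. The log2 fold change was 0.03 (SE 0.06, 95% confidence interval -0.10 to 0.16, edgeR adjusted p = 0.920). Its gene lies on the minus strand of chromosome 9 from 119335934 to 119341411 and overlaps Acaa1a on the opposite strand by 1736 bases. The whole gene, 5478 bases, also lies within the bounds of Slc22a14 on the same strand. Acaa1a transcripts contain, as reverse complements, 11.6% of the stretches of 31 bases in Myd88 transcripts. Whether the quantification used strand is not given in the sources used here. Acaa1a itself had a log2 fold change of 0.03 (SE 0.05, edgeR adjusted p = 0.920).

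Levels can be compared between genes only per transcript length, here as CPM per kb of the mean length of each gene's coding transcripts. Myd88 was highest with 39.7 ± 2.47 CPM per kb (SD, n = 10 tumors), followed by Tlr4 with 11.2 ± 1.33, Tlr2 with 9.96 ± 1.17 and Tlr13 with 9.09 ± 1.32. Then came Tlr8 with 7.31 ± 1.08, Tlr7 with 6.08 ± 0.978, Tlr1 with 5.34 ± 0.955, Tlr6 with 3.56 ± 0.4301, Tlr9 with 1.84 ± 0.378 and Tlr5 with 0.689 ± 0.141 CPM per kb. Tlr3, for comparison, stood at 8.04 ± 0.845 CPM per kb. The ranges of neighbors in this order did not overlap between Myd88 and Tlr4, between Tlr6 and Tlr9, and between Tlr9 and Tlr5, and the higher gene led in 10 of 10 tumors in each of these pairs. All other neighbors had overlapping ranges, and Tlr2 exceeded Tlr13 in 6 of 10 tumors. With the longest coding transcript as the length, Tlr4 came to 8.14, below Tlr2 and Tlr13, and Tlr6 to 1.99, beside Tlr9, while Myd88 stayed first at 23.7 and Tlr5 last at 0.593 CPM per kb.

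**Figure D3:**
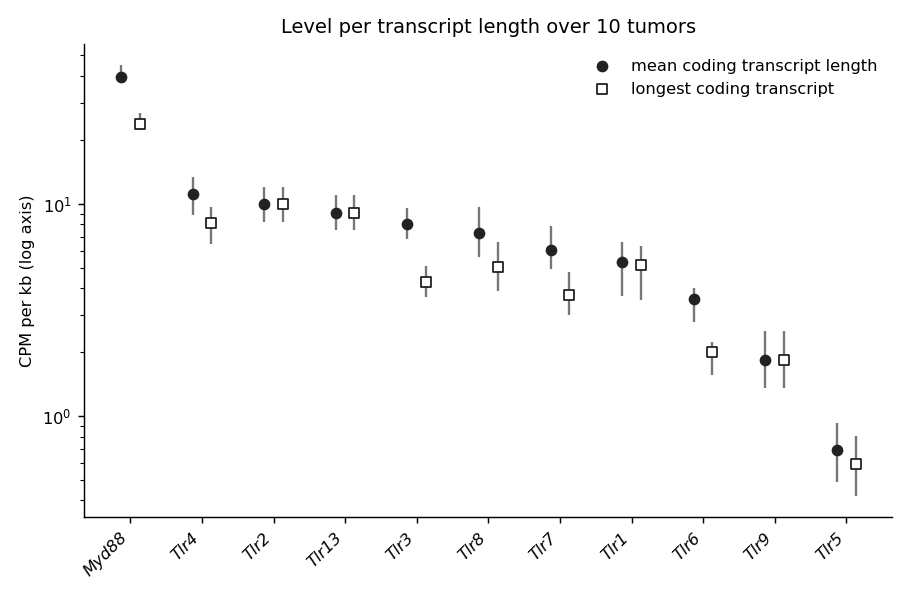
Level per transcript length (CPM per kb, log axis) of 9 Toll-like receptors, Tlr3 and Myd88, as the mean (symbol) and range (line) over 10 tumors, with filled circles for the mean coding transcript length and open squares for the longest. Myd88 lies at the top and Tlr5 at the bottom with either length.

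Summed per length, the 5 surface receptors came to 28.7 ± 2.20 CPM per kb in NR and 32.7 ± 2.002 in RS (SD, n = 5 each). The sum of Tlr7, Tlr8, Tlr9 and Tlr13 came to 25.3 ± 4.06 CPM per kb in NR and 23.4 ± 2.26 in RS (SD, n = 5 each). As a share of all 9 receptors, Tlr7, Tlr8, Tlr9 and Tlr13 together made up 49.2%, 42.3%, 42.4%, 47.9% and 51.4% in non-responders 1, 2, 3, 6 and 7. The share was 47.9% in responder 5 and 37.7%, 40.4%, 40.8% and 41.4% in responders 9 to 12. Responders 9 to 12 lay below all non-responders, and responder 5 fell among non-responders 1, 6 and 7. Responders 9 to 12 also have the highest tumor numbers, so response and number order cannot be told apart in this split. The group means were 46.6% in NR and 41.7% in RS, and no test was made of these sums because the genes were chosen with their values known.

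**Figure D4:**
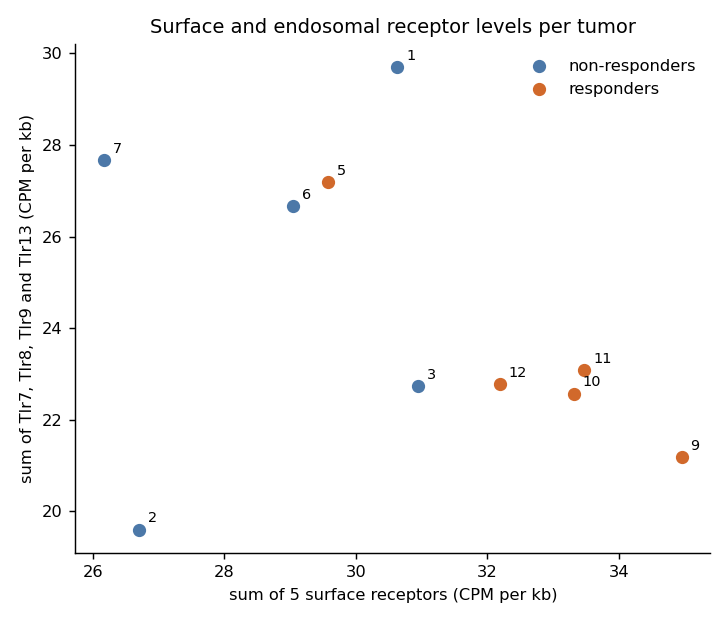
Summed level of the 5 surface receptors (x axis) against that of Tlr7, Tlr8, Tlr9 and Tlr13 (y axis) in each tumor, in CPM per kb, with NR in blue, RS in orange and the tumor number beside each point. Responders 9 to 12 sit together at the lower right, and responder 5 sits with non-responder 6.

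In pieces of whole tumor, fewer cells of a type and less RNA per cell cannot be told apart, so marker genes of the cells that carry Toll-like receptors were read in the same tumors. All 10 macrophage markers passed the filter on low counts, and Apoe was the most abundant at 826 CPM. Their summed level was 2270 ± 277 CPM in NR and 2470 ± 340 CPM in RS (SD, n = 5 each). Log2 fold changes were 0.08 for Adgre1, 0.19 for Cd68, 0.15 for Csf1r, 0.21 for Mrc1, 0.14 for C1qa, 0.13 for C1qb, 0.16 for C1qc, 0.09 for Fcgr1, 0.06 for Apoe and -0.09 for Mertk, and none had an unadjusted p under 0.05. The macrophage score, the mean log2(CPM + 1) of these markers, was 0.11 higher in RS (exact two-sided permutation test, p = 0.262, with 0.00794 as the smallest p possible for 5 against 5). The difference was 0.06 without responder 11, 0.07 without non-responder 2 and 0.17 without non-responder 1. With this score as a covariate, the log2 fold change of Tlr2 was 0.26 and that of Tlr9 -0.32, as large as without it. Tlr6 went from 0.17 to 0.11, Tlr4 from 0.18 to 0.13 and Tlr8 from -0.03 to -0.09. The values of Tlr1 and Myd88 turned to -0.06 and -0.02.

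Over the 10 tumors, Tlr1 had the highest correlation with the macrophage score of the 10 genes (Pearson's r = 0.769, permutation p = 0.00913, adjusted p = 0.0913 over 10 relations; Spearman's rho = 0.794, permutation p = 0.00894, adjusted p = 0.0894). Without responder 11 and non-responder 1, whose scores lay farthest from the median, Tlr1 had an r of 0.708 (exact permutation p = 0.0459, adjusted p = 0.153). The order of the genes rested on these 2 tumors: over all 10 tumors Myd88 had an r of 0.667, Tlr6 of 0.646, Tlr4 of 0.589 and Tlr2 of 0.265, and without the 2 tumors the values were 0.227, 0.779, 0.606 and 0.754. For Tlr6 and Tlr2 the adjusted p without them was 0.153, as for Tlr1 (exact permutation test). Tlr5 had r of 0.186 over all tumors and 0.376 without the 2. Tlr8, Tlr7, Tlr9 and Tlr13 had r of 0.407, 0.0602, -0.106 and -0.0489 over all tumors and of 0.0770, -0.132, -0.0318 and -0.218 without the 2. None of the 10 relations passed an adjusted p of 0.05 in either setting.

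Markers of NK cells, mast cells, granulocytes and T cells had median log2 fold changes of 0.94, 0.44, 0.61 and 0.50. Those of plasmacytoid dendritic cells had 0.21 and those of macrophages 0.14. Monocyte, B cell and conventional dendritic cell markers had 0.11, 0.13 and -0.01. Of the 7 T cell markers that passed the filter, none had an unadjusted p under 0.05. No test was made between these lists. The summed level of NK cell markers was 28.9 ± 15.04 CPM in NR and 80.5 ± 46.8 CPM in RS, with Gzma the most abundant and Klra8 at 0 in every tumor (SD, n = 5 each). For mast cells, led by Tpsb2, it was 209 ± 56.5 and 285 ± 63.9 CPM, and for granulocytes, led by Mmp9, 66.8 ± 31.7 and 93.5 ± 36.6 CPM. The granulocyte sum was 124 CPM in non-responder 1, 50.9 to 54.0 CPM in the other non-responders, and 58.2 (responder 5) to 144 CPM (responder 11) in RS. All 6 NK markers that passed the filter, 5 of 6 mast cell markers and 1 of 7 granulocyte markers had an unadjusted p under 0.05, against 8.21% of all features, and none was called. Plasmacytoid dendritic cells and B cells, the cells best known for Tlr7 and Tlr9, had 399.7 ± 24.9 and 9.29 ± 3.82 CPM in NR against 406 ± 17.2 and 11.1 ± 2.94 CPM in RS. Their most abundant markers were Bst2, which interferon also induces in other cells, and Cd22. With the mean score of all immune lists as a covariate, Tlr2 was at 0.28 and Tlr9 at -0.26. In the same fit Tlr6 was at 0.06, Tlr5 at 0.07, Tlr4 at 0.12 and Tlr1 at -0.15, and Tlr8 was at -0.12, Tlr7 at -0.14 and Tlr13 at -0.15. The median of the 5 surface receptors was 0.07 in place of 0.17. That of Tlr7, Tlr8, Tlr9 and Tlr13 was -0.15 in place of -0.12. Beyond these fits, the part of cell composition in the values of the 10 genes was not tested.

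The 10 genes were also compared with each other over the tumors. Of 45 pairs among the 10 genes, Tlr7 and Tlr8 had the highest correlation over the 10 tumors (Pearson's r = 0.854, permutation p = 0.00093, adjusted p = 0.0418; Spearman's rho = 0.806, permutation p = 0.00717, adjusted p = 0.161). It was the single pair at an adjusted p under 0.05 and, without non-responders 1 and 7, whose Tlr7 lay farthest from the median, r was 0.672 (exact permutation p = 0.0664) over the remaining 8 tumors. Tlr7 with Tlr13 followed (r = 0.827) and then Tlr1 with Tlr6 (r = 0.797), each at an adjusted permutation p of 0.0724. Of these 3 pairs, Tlr1 with Tlr6 share transcript sequence. The median r was 0.658 over the 6 pairs among Tlr7, Tlr8, Tlr9 and Tlr13, 0.2495 over the 10 pairs of surface receptors and -0.0369 over the 20 pairs across compartments. These correlations were taken over RS and NR together. The group differences given above therefore enter them, to an extent that was not tested.

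For each of the 10 genes, the features with the most similar profile were read out as the highest r among 13065 named features over the 10 tumors, a search that yields high values by its size. Tlr1 was most like Clec4a3, a lectin of myeloid cells (r = 0.959), Ikzf1, a transcription factor of blood cells (r = 0.951), and Vav1, a signaling protein of blood cells (r = 0.943). Tlr9 was most like Cd209f (r = 0.965), Gm25432 (r = 0.912) and Cd209g (r = 0.906). Cd209f and Cd209g encode lectins related to DC-SIGN and had log2 fold changes of -0.58 and -0.95 (edgeR adjusted p = 0.614 and 0.580). The nearest features of Tlr2 were Cnpy2 (r = 0.943), Rab2b and the class I molecule H2-Q7, and those of Tlr4 were Abcc5 (r = 0.968), Smcr8 and Atp9b. Tlr5 was nearest to Lca5l, Stradb and Atp10d, Tlr6 to Tmem51, Tapt1 and Pcid2, and Tlr7 to Spata5, Zc3h13 and Pcdhga5. Tlr8 was nearest to Stard8, Stk4 and Rufy3, Tlr13 to Cebpz, Dph2 and Wdr4, and Myd88 to Noc4l, Bak1 and Tpm3-rs7. None of the 10 genes was among the 3 nearest of another.

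The genes around the receptors were read from lists of the pathway, ordered from ligand to target. In all lists together 92 of 94 genes passed the filter, none was called, 72 had a log2 fold change above 0 and 20 below. An unadjusted p under 0.05 was reached by 17 of the 92 genes higher in RS and 1 lower in RS, where 8.21% of all features reached it and 4.2% were higher in RS; the counts in single lists stand beside the same shares. The median log2 fold change was 0.13, and it was highest for the targets that Toll-like receptors induce. Whether Toll-like receptors or other signals set the level of these targets in the tumors was not tested.

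Of 6 partners in ligand recognition, 5 lay above 0 and none had an unadjusted p under 0.05. Cd14, which hands lipopolysaccharide to Tlr4, was at 53.8 ± 12.9 CPM in NR and 63.2 ± 6.02 CPM in RS (SD, n = 5 each; log2 fold change 0.23, edgeR adjusted p = 0.677). Ly86 and Cd180, which form a complex related to Ly96 and Tlr4, had values of 0.09 and -0.02. Of 13 genes for trafficking and processing of endosomal receptors, 11 lay above 0 and none had an unadjusted p under 0.05. The highest of them in CPM were the chaperone Hsp90b1 and the cathepsins Ctsb and Ctsl, with log2 fold changes of 0.01, 0.20 and 0.13. Ctss, a protease that cleaves endosomal receptors, had 0.33 (SE 0.17, edgeR adjusted p = 0.623), and Lrrc59 had -0.08. Most of this list thus had higher means in RS, opposite in sign to Tlr7, Tlr8, Tlr9 and Tlr13, and neither the list's genes nor the receptors passed the test.

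The 5 other adaptors with a TIR domain or a related role lay on both sides of 0, 2 above and 3 below, with a median of -0.02. Tirap, the bridge between Tlr2 or Tlr4 and Myd88, was at -0.02, Ticam1 at -0.08, Pik3ap1 at -0.13 and the scarce Sarm1 at 0.43. Of 19 kinases and ubiquitin ligases, 3 were higher and 1 lower in RS at an unadjusted p under 0.05. Ikbkb, the kinase that releases NF-kB, was the single pathway gene of 92 without overlap between groups, a share close to the 0.926% of all features. It was at 68.6, 64.9, 69.7, 68.7 and 65.5 CPM in NR and at 72.1, 74.7, 72.1, 74.98 and 72.5 CPM in RS, with a log2 fold change of 0.12 (SE 0.04, edgeR adjusted p = 0.580). Tab3 had -0.18 (edgeR adjusted p = 0.607), and Irak1, Ube2v1 and Tab2, the most abundant of the list, lay between -0.06 and 0.04.

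Of 10 transcription factors, Irf8 and Irf1 had the largest values, with log2 fold changes of 0.45 and 0.41 (SE 0.14 each, edgeR adjusted p = 0.580 for both). Interferon induces Irf1, and Irf8 is also a lineage factor of myeloid cells. Of the NF-kB genes, Nfkb1 and Nfkb2 lay at 0.00 and Rela at -0.07. Relb and Rel lay above 0, at 0.15 each (edgeR adjusted p = 0.580 and 0.619). In this list 3 of the 10 genes, all higher in RS, had an unadjusted p under 0.05. Of 15 inhibitors, 12 lay above 0 and 3 reached an unadjusted p under 0.05. Irak3, which blocks the Irak kinases downstream of Myd88, was at 3.49 ± 0.580 CPM in NR and 5.05 ± 1.54 CPM in RS (SD, n = 5 each; log2 fold change 0.54, edgeR adjusted p = 0.580). Nfkbia, which holds NF-kB in the cytoplasm, had 0.23, Il1rl1 0.23, Cyld -0.03 and Rnf216 -0.13.

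Among 21 targets that Toll-like receptors induce, Il12a and Ifnb1 did not pass the filter. Of the other 19, 18 lay above 0, with a median of 0.50, and 7 had an unadjusted p under 0.05. Nos2, the inducible nitric oxide synthase, was at 41.6, 16.8, 23.96, 19.9 and 16.9 CPM in NR and at 21.4, 56.1, 48.1, 96.2 and 44.03 CPM in RS. Responders 9 to 12 were above all non-responders and responder 5 was not. Nos2 had a log2 fold change of 1.16 (SE 0.34, edgeR adjusted p = 0.580). Acod1, which makes itaconate in activated macrophages, had 0.96 (SE 0.26), Cxcl10, a chemokine that interferon also induces, 0.50 (SE 0.14), Ptgs2 0.06 and Il12b -0.03. Of 5 interleukin receptors that use Myd88, Il18rap had 0.23 (SE 0.07, edgeR adjusted p = 0.580), while Il1r1 and Il1rap had 0.03 and -0.05.

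**Figure D5:**
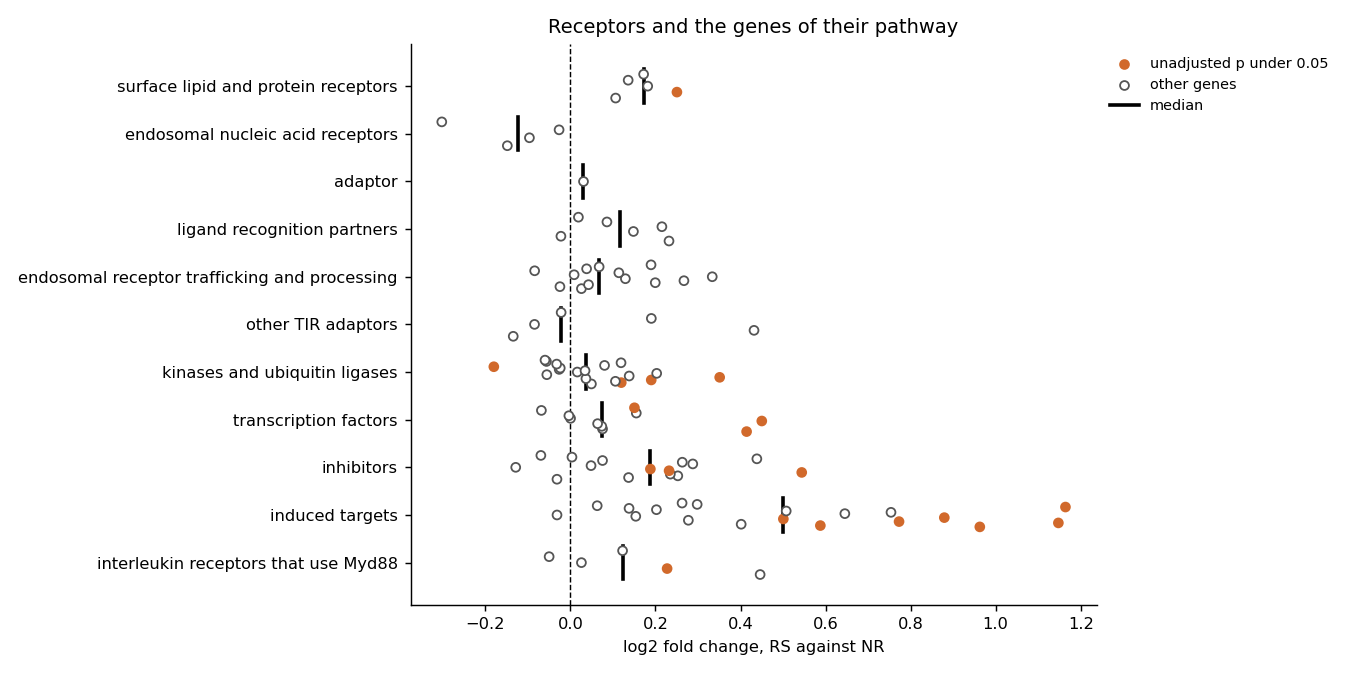
Log2 fold change, RS against NR, of every gene that passed the filter in the receptor groups and pathway lists, with orange for an unadjusted p under 0.05 and a black bar for the median of each list. The induced targets extend furthest to the right, to 1.16 for Nos2, while the 9 receptors among the 10 genes stay between -0.30 and 0.25.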

How the data were processed

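RNA from 10 resected WEHI 164 tumors (5 RS, 5 NR) was sequenced from polyA RNA. The deposited file holds, for each gene, estimated counts that the authors obtained on GRCm38 with kallisto and tximport, without normalization; the annotation release is not given in the sources used here. Rows of one name were summed (44 names lay on several rows), the 9580 rows without a name, with 1.31% of the counts, were kept as features, and counts were rounded. A feature was tested if its CPM exceeded 0.366 in 3 or more tumors, using edgeR 4.0.16 (TMM, quasi-likelihood, Benjamini-Hochberg, threshold 0.05) in R 4.3.3. The biological coefficient of variation between tumors was 10.4%, to which counting error adds for genes with few counts. SE was obtained by dividing the log2 fold change by the square root of F. Scores used log2(CPM + 1) with an exact permutation test, and correlations used 100000 resamples. Alternatives were DESeq2 1.42.0, limma 3.58.1, other normalizations, filters and transcript lengths, marker scores as covariates, and leaving out each tumor. On simulated data the edgeR steps were tested first. Positions, transcript lengths and sequences are from GENCODE vM21 on GRCm38.

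The 10 genes, the lists and the tests were chosen with earlier results of these data known, and the lists of markers and pathway genes were written by hand from general knowledge. Named were all 10 genes and macrophage markers, Tlr3, Tlr11 and Tlr12, of each pathway list the 3 most abundant genes and the smallest p in each direction, of other marker lists the most abundant gene and markers at 0, and the 3 features most like each gene among those with a mean CPM of at least 1. Other genes named (Acaa1a, Slc22a14, Ly6g, Ly6c2, Ccr2, Il12a and Ifnb1) were chosen after their values were seen, and 1 marker gene is not reported here. P-values measure the spread between these tumors, 1 piece each.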

Additional observations from a re-analysis of the deposited data

Results flagged for a closer look

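In RS, Tlr2 of responder 9 stood apart from the other responders, with a log2(CPM + 1) of 5.22 where responders 5, 10, 11 and 12 lay between 4.99 and 5.05. Without responder 9 the log2 fold change of Tlr2 was 0.22. In NR, the granulocyte marker score of non-responder 1 was 2.79, where the other non-responders lay between 1.89 and 2.13. Non-responder 1 also had the highest Tlr7 and Tlr8. Both values were marked because the gap to the nearest tumor was more than 0.71 of the range of the group. Of 48 groups of 5 tumors examined, 2 gave such a value, and chance alone gives about 1 in 20, or 2.4.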

How the results depend on the processing

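Of the 18 alternatives to the test as given, DESeq2 gave the 10 genes no adjusted p (unadjusted p of Tlr2 0.000875), and under the others none of them was called. Tlr2 kept a log2 fold change between 0.22 and 0.30 under all 18, with an adjusted p from 0.140 to 0.931 where there was one. Features called were 0, but 4 with DESeq2 and 0 to 9 when each tumor was left out, the 9 without responder 5. Genes of the 10 with an unadjusted p under 0.05 were 1, against 8.21% of all features, but 2 (Tlr2 and Tlr4) without a filter (6.78% of features), with DESeq2 (7.9%) and with limma-voom (8.44%). They were 1 to 4 when each tumor was left out: 4 without responder 5 (13.6%), 3 without non-responder 2 (7.28%), and 2 without non-responder 1 (9.78%) or 3 (9.06%). Their median log2 fold change of 0.07 turned to -0.0370 with the macrophage score and -0.0693 with the immune score as covariate, and was 0.0103 to 0.122 when each tumor was left out. With the same covariates Tlr1 turned to -0.0556 and -0.148 and Myd88 to -0.0183 and -0.0142. Leaving out tumors gave -0.0103 to 0.0590 for Myd88, lowest without responder 11, and -0.113 to 0.0862 for Tlr8, which was 0.0108 with limma-voom. Counts by compartment, an alternative chosen after seeing the data, were 5 of 5 surface receptors above 0, or 4 with either covariate (Tlr1), and 4 of 4 of Tlr7, Tlr8, Tlr9 and Tlr13 below 0, or 3 with limma-voom and without non-responder 1, non-responder 7 or responder 9 (Tlr8). Correlations with the macrophage score changed sign for Tlr2 (-0.0688), Tlr9 (0.144) and Tlr13 (0.112) as deviations from group means and for Tlr7 (-0.132) without the 2 farthest tumors. For these changes the cause was not tested. No paired analysis was possible because no tumor number occurs in both groups. Depth limits Tlr5, Tlr9, Tlr11 and Tlr12 most, and shared sequence limits Tlr1 and Tlr6.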

Other observations

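Markers of cells other than leukocytes had lower mean sums in RS in each of the 5 lists. The 8 mesenchymal markers, led by Vim at 4764 CPM, summed to 11453 ± 785 CPM in NR and 10807 ± 497 CPM in RS (SD, n = 5 each). Of these 8 markers 2 had a log2 fold change above 0, Vim with 0.06 and Thy1 with 0.34. Another 2, both lower in RS, had an unadjusted p under 0.05, a level reached by 8.21% of all features. Endothelial markers summed to 179 ± 14.6 CPM in NR and 163 ± 9.36 CPM in RS. Of these 6 markers 1 lay above 0, the most abundant, Pecam1, which ran against the sum with a log2 fold change of 0.09. At an unadjusted p under 0.05 there were 3 of the 6, all lower in RS, and no mesenchymal or endothelial marker was called. Skeletal muscle markers, led by Acta1, came to 146 ± 42.3 and 108 ± 45.9 CPM, and adipocyte markers, led by Fabp4, to 26.3 ± 9.10 and 23.9 ± 6.42 CPM. Keratinocyte markers, led by Dsp, were at 17.2 ± 1.14 and 16.9 ± 1.62 CPM, with Krt1 at 0 in every tumor. These sums are given without a test.

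Of the remaining immune lists, monocyte markers, led by Vcan, summed to 658 ± 33.2 CPM in NR and 634 ± 46.4 CPM in RS. Their score, the mean log2(CPM + 1), went the other way and was 0.11 higher in RS, with 4 of 6 markers above 0; Vcan had a log2 fold change of -0.10, Ccr2 of -0.23 and Ly6c2 of 0.48 (edgeR adjusted p of 0.580 for Ly6c2). T cell markers, led by Cd4, came to 25.4 ± 7.96 and 34.2 ± 12.02 CPM, and conventional dendritic cell markers, led by Itgax, to 62.3 ± 11.2 and 56.2 ± 4.12 CPM. Of the T cell markers 7 of 8 were found in the table, and of the granulocyte markers 7 of 8 passed the filter on low counts, Ly6g not among them.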
